A study of Mus musculus with 12 samples.

Results

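Potassium channel genes were taken from the total RNA table as every row whose symbol is Kcn followed by lower-case letters and a number, which gave 92 of 49489 genes. The rule covers pore-forming subunits and auxiliary subunits alike, and it leaves out noncoding genes such as Kcnq1ot1. The libraries came from primary hippocampal neurons of newborn mice kept in culture for 16 days, from which RNA of a pulldown aimed at the long noncoding RNA Gas5 was sequenced. There were 3 libraries called antisense and 3 called sense, and the labels do not say which of them was the capture and which the control. They give no strain, sex or further treatment. Nothing tells if replicates were grown apart, so p-values measure the spread between these libraries only, which may be technical.

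Potassium channels let potassium leave or enter cells along its gradient, and in hippocampal neurons they set the resting potential, end the action potential and pace repeated firing. Voltage-gated channels (Kv) are built from pore-forming subunits that join as tetramers, and cytoplasmic or membrane-spanning auxiliary subunits change their gating and transport. Inward rectifiers and tandem-pore channels carry resting current, and in astrocytes inward rectifiers take up potassium released by active neurons.

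Levels are given as CPM, the usual scaled counts relative to library size, here with the size adjusted by TMM, and they are not corrected for gene length, so the level of a gene was compared between libraries and not with that of another gene. Library totals ran from 5774904 to 10424024 counts, of which 9037 to 11245 fell in potassium channel genes. Gas5 took 9.71% to 14.2% of the antisense counts and 32.7% to 57.1% of the sense counts. On the TMM scale the median log2 fold change (antisense minus sense) of all genes tested was -0.01, while on library totals alone it was 0.69. Markers of neurons, astrocytes and the oligodendrocyte lineage were all detected: the summed level of 8 neuron markers was 768 to 965 CPM in antisense against 972 to 1220 CPM in sense, and that of 6 oligodendrocyte lineage markers was 316 to 340 CPM and 338 to 440 CPM. Of the neuron markers 1 was lower and 7 did not pass, and the 6 oligodendrocyte lineage markers did not pass. Of the microglia, vascular and muscle markers 2, 3 and 2 were tested. Among them only the muscle gene Ttn passed, as higher in antisense. The muscle list summed to 70.5 to 80.1 CPM in antisense against 33.4 to 33.8 CPM in sense, which rested on Ttn, with means of 62.0 and 17.6 CPM. The other listed muscle genes, Actn2, Tnnt2 and Acta1, had lower means in antisense (14.2, 0.174 and 0.173 against 15.3, 0.373 and 0.270 CPM). These are bulk libraries, in which fewer cells of a type and less RNA per cell cannot be told apart.

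Most potassium channel genes differed little between antisense and sense. Of the 92, 90 had a count above 0 and 65 had enough counts to be tested. In the antisense libraries 4 were higher (Kcnj13, Kcnab1, Kcnk4 and Kcnip4), 2 were lower (Kcnj10 among them) and 59 did not pass (edgeR quasi-likelihood test, two-sided, Benjamini-Hochberg adjusted p under 0.05 over all 20049 genes tested). The 4 higher members are 6.15% of those tested, against 18.2% of all genes tested and 9.37% of tested protein-coding genes. The 2 lower members are 3.08%, against 4.35% of all genes and 4.8% of protein-coding genes. All 65 tested members are protein-coding, so the protein-coding shares are the closer background. The share of lower calls was near it. The share of higher calls, which rests on 4 genes, was somewhat under it, a gap that was not tested.

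Small differences leaned toward sense. Of the 65 tested members 48 had a negative log2 fold change (73.8%), against 51.6% of all genes tested and 61.3% of tested protein-coding genes. Their median was -0.13, with quartiles of -0.24 and 0.07, against -0.01 over all genes and -0.07 over protein-coding genes. The 3 sense libraries all lay above the 3 antisense libraries for 13 members (20%, against 13.2% of all genes and 16% of protein-coding genes). The antisense libraries all lay above for 7 members (10.8%, against 23.4% of all genes and 14.2% of protein-coding genes). Summed over the 92 genes, the level was 1470, 1433 and 1405 CPM in antisense replicates 1, 2 and 3 and 1627, 1524 and 1539 CPM in sense replicates 1, 2 and 3. On library totals alone, a scaling that moves all genes up together, the median was 0.58 for the members and 0.69 for all genes, and 30 members passed as higher and none as lower. The share of all genes called on that scaling is not given here, so the 30 have no background beside them. The members' median less that of all genes was -0.12 on the TMM scale and -0.11 on library totals. As a change of scaling moves all genes nearly alike, this likeness is no added support. The difference was -0.07 without antisense replicate 3 and -0.21 with no count filter. The sign of a small log2 fold change is set by the scaling. Without antisense replicate 1 the members' median was -0.20. Of the 82 members that DESeq2 tested, it called 5 higher, against 14.2% of all genes it tested, and 1 lower, against 2.26%.

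**Figure D1:**
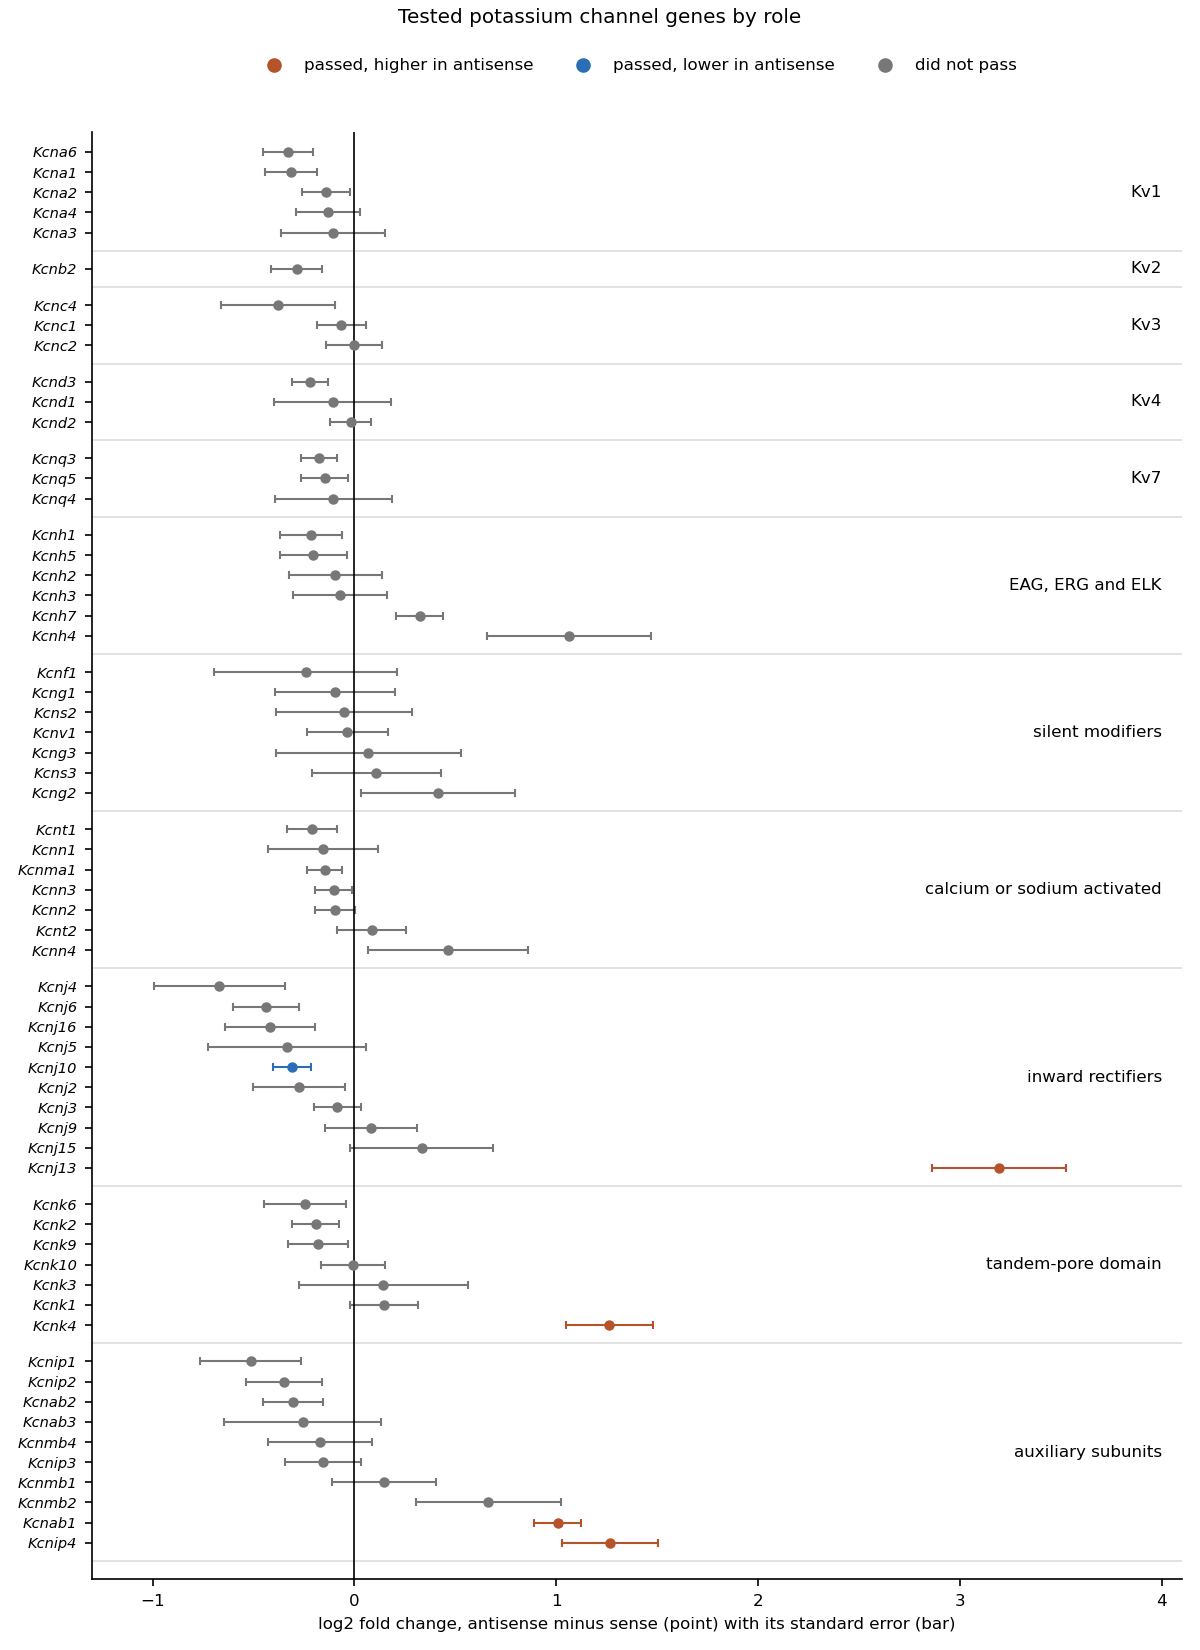
Log2 fold change, antisense minus sense, of tested potassium channel genes on the horizontal axis, with its standard error as a bar, grouped by role from top to bottom. The 4 higher members (Kcnj13 at 3.19, Kcnip4 at 1.27, Kcnk4 at 1.26 and Kcnab1 at 1.01) stand apart on the right, and the Kv1, Kv2, Kv3, Kv4 and Kv7 members shown all lie at or left of 0 on the TMM scale.

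Among the classical voltage-gated subunits (Kv1 to Kv4 and Kv7) every tested member had a negative log2 fold change on the TMM scale. Kv1 had 5 tested members with a median of -0.14, Kv4 had 3 with a median of -0.11 and Kv7 had 4 with a median of -0.16, and no Kv1 or Kv4 member passed in edgeR.

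Kv3 subunits allow fast repetitive firing. Kcnc1, a Kv3 subunit of fast-firing interneurons, was at 24.1, 22.1 and 27.4 CPM in antisense and 26.3, 24.3 and 26.4 CPM in sense, with overlapping groups and a log2 fold change of -0.07 (SE 0.123). Kcnc2 was at 16.7 to 19.5 CPM and 16.3 to 19.6 CPM, and Kcnc4 at 2.94 to 5.99 CPM and 5.28 to 7.39 CPM. Kcnc1, Kcnc2 and Kcnc4 did not pass.

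Kv1 and Kv2 subunits shape the spike and its repolarisation in axon and soma. Kcna2, an axonal Kv1 subunit, was at 46.7, 39.1 and 44.8 CPM in antisense and 54.6, 47.4 and 41.7 CPM in sense, and the groups overlapped (log2 fold change -0.14, SE 0.117). Kcna1 and Kcna6 did not overlap between groups, at 17.9 to 22.2 CPM and 23.3 to 25.5 CPM for Kcna1 and at 19.4 to 23.2 CPM and 25 to 28.5 CPM for Kcna6. Neither passed (edgeR adjusted p = 0.100 and 0.0740), though Kcna6 passed without antisense replicate 3 (0.0444). Kcnb2, a Kv2 delayed rectifier subunit, did not overlap between groups, at 19.1 to 24.6 CPM and 25.7 to 27.7 CPM, and did not pass (log2 fold change -0.29, SE 0.127; edgeR adjusted p = 0.128).

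Kv4 subunits carry the dendritic A-type current, and Kv7 subunits the M-current that muscarinic receptors suppress. Kcnd3 was at 67.3, 67.8 and 65.5 CPM in antisense and 83.3, 74.1 and 76.5 CPM in sense, without overlap, and did not pass (log2 fold change -0.22, SE 0.0902; edgeR adjusted p = 0.100). Kcnd2, the other main hippocampal Kv4 gene, was at 45.1 to 55 CPM and 49.7 to 52.8 CPM, with the sense range inside the antisense range. Kcnq3, an M-channel subunit, was at 78.9 to 89.8 CPM and 96.2 to 97.5 CPM, a log2 fold change of -0.18 (SE 0.0896). Its groups did not overlap, and it did not pass (edgeR adjusted p = 0.188).

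The EAG, ERG and ELK family, relatives that include the cardiac repolarising channel gene Kcnh2, went both ways. None of its 6 tested members passed; 4 had negative and 2 positive log2 fold changes. Kcnh7, an ERG channel of neurons, was at 32.2, 35.9 and 37.8 CPM in antisense and 31.1, 26.5 and 26.9 CPM in sense, so that every antisense library lay above every sense library. Its log2 fold change was 0.32 (SE 0.116, edgeR adjusted p = 0.0597). The call depended on the setting. In edgeR Kcnh7 passed at a minimum count of 50 (adjusted p = 0.0482), without Gas5 (0.0451) and on library totals alone (0.00017). It did not pass with a replicate block (edgeR adjusted p = 0.103), with no count filter (0.0824) or whichever library was left out (0.0536 to 0.194). DESeq2 did not call it either (DESeq2 adjusted p = 0.199). Kcnh4, an ELK channel chosen here after its values were seen, was at 1.70, 2.04 and 2 CPM in antisense and 1.26, 0.930 and 0.511 CPM in sense, also without overlap (log2 fold change 1.06, SE 0.407; edgeR adjusted p = 0.0786). Electrically silent subunits, which form no channel alone and modify Kv2 channels, had 7 tested members, none of which passed (median -0.04). Kcnv1 was at 8.11, 7.15 and 8.13 CPM in antisense and 8.49, 6.66 and 8.86 CPM in sense, with overlapping groups.

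Channels opened by calcium or sodium end bursts and set the afterpotentials that follow spikes. None of 7 tested members passed (median -0.10). Kcnma1, the pore subunit of the large-conductance BK channel, was at 124, 133 and 126 CPM in antisense and 143, 143 and 138 CPM in sense, without overlap (log2 fold change -0.15, SE 0.0849; edgeR adjusted p = 0.249). The small-conductance genes Kcnn2 and Kcnn3 were at 43.2 to 46.4 CPM and 51.5 to 53.3 CPM in antisense and at 43.6 to 50.7 CPM and 55.2 to 57.2 CPM in sense. Their log2 fold changes were -0.10 each, with SE 0.0997 and 0.0895.

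Inward rectifiers held both the member with the largest log2 fold change among the 65 tested and a lower member. Of 10 tested, Kcnj13 was higher, Kcnj10 was lower and 8 did not pass (median -0.29). Kcnj13, an inward rectifier of choroid plexus and retinal pigment epithelium, had 50, 53 and 58 counts in antisense and 4, 4 and 6 in sense. Scaled, these were 6.54, 6.77 and 7.73 CPM against 0.629, 0.620 and 1.02 CPM, so every antisense library was several times any sense library. The means were 7.01 ± 0.631 and 0.757 ± 0.230 CPM (SD, n = 3 each), a 9.15-fold difference (log2 fold change 3.19, SE 0.333; edgeR adjusted p = 4.21e-06). Its sense counts were all under the minimum count of 10, so it passed the count filter through its antisense libraries alone. The adjusted p is to be read with that limit. Markers of choroid plexus epithelium, a list of 8 chosen after these values were seen, gave no call beside it. The 4 tested (Ttr, Folr1, Kl and Prlr) did not pass, the other 4 had too few counts, none was at 0 in all libraries, and the summed level of the 8 was 34.3 to 35.6 CPM in antisense against 34.7 to 40.7 CPM in sense.

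Kcnj10, the channel through which astrocytes and oligodendrocytes buffer potassium, stood at 177, 184 and 166 CPM in antisense and 239, 204 and 210 CPM in sense. The groups did not overlap, and sense replicate 1 was the highest. Its means were 176 ± 8.88 and 218 ± 18.9 CPM (SD, n = 3 each), which is -0.31 on the log2 scale (SE 0.0934; edgeR adjusted p = 0.0257). The gene lies at chr1:172341210-172374085 and overlaps no other gene. The call was lost on leaving out antisense library 1 (adjusted p = 0.0769), antisense library 3 (0.0729), sense library 1 (0.126) or sense library 3 (0.0501), and at a minimum count of 50 (0.0563). Astrocyte markers had negative log2 fold changes beside it, with a median of -0.25. Aldh1l1 was lower and 5 of 6 did not pass, and the summed level was 1113 to 1381 CPM in antisense against 1287 to 1658 CPM in sense. This was not particular to astrocytes, as the medians of the neuron and oligodendrocyte lineage markers were -0.38 and -0.26. The part of the astrocyte markers in the result was not tested. Kcnj16, which joins Kcnj10 in one channel, was at 5.20 to 7.66 CPM and 7.15 to 9.76 CPM and did not pass (log2 fold change -0.42, SE 0.222).

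The G protein-gated rectifier genes, whose channels open when GABA-B or other inhibitory receptors are active, did not pass. Kcnj6 was at 10.5, 13.5 and 11.7 CPM in antisense and 17.1, 13.9 and 17.4 CPM in sense, without overlap (log2 fold change -0.44, SE 0.163; edgeR adjusted p = 0.0711). On leaving out antisense library 2 it did pass, as lower (adjusted p = 0.0439), and likewise on leaving out sense library 2 (0.0366). Kcnj3, its usual partner subunit, was at 22.5 to 26.3 CPM and 26.2 to 26.6 CPM, and Kcnj9 at 6 to 8.50 CPM and 5.28 to 7.90 CPM, with overlapping groups for both. Kcnj4, a rectifier of forebrain neurons, was at 2.17 to 4.58 CPM and 3.87 to 6.13 CPM, and passed only without antisense replicate 1 (adjusted p = 0.0496).

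Tandem-pore channels carry background leak current. Of 7 tested, Kcnk4 was higher and 6 did not pass (median -0.01). Kcnk4, which encodes a leak channel opened by membrane stretch and arachidonic acid, had 15.7, 20.1 and 18.8 CPM in antisense and 6.76, 10.5 and 5.28 CPM in sense. The groups did not overlap, though sense replicate 2 stood well above the other sense libraries. The means were 18.2 ± 2.24 and 7.53 ± 2.71 CPM (SD, n = 3 each), a 2.40-fold difference (log2 fold change 1.26, SE 0.215; edgeR adjusted p = 0.000346). Its close relatives Kcnk10 and Kcnk2 did not pass: Kcnk10 was at 31.9, 32.9 and 22.6 CPM in antisense and 35.1, 27.6 and 25.2 CPM in sense (log2 fold change -0.01, SE 0.157), and Kcnk2 was at 22.3 to 24.4 CPM and 24.8 to 28.4 CPM (-0.19, SE 0.117). Kcnk4 lies at chr19:6925662-6934883.

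Auxiliary subunits held the other 2 higher members. Of 10 tested, Kcnab1 and Kcnip4 were higher and 8 did not pass (median -0.16). Kcnab1, a cytoplasmic beta subunit that speeds inactivation of Kv1 channels, was at 31.5, 30.1 and 30.6 CPM in antisense and 15.6, 15 and 15.3 CPM in sense. The libraries of each group lay close together and far from the other group. The means were 30.8 ± 0.693 and 15.3 ± 0.269 CPM (SD, n = 3 each), a 2.01-fold difference (log2 fold change 1.01, SE 0.118; edgeR adjusted p = 1.19e-05). The other beta subunit genes, Kcnab2 and Kcnab3, had log2 fold changes of -0.30 (SE 0.149) and -0.26 (SE 0.388) and did not pass.

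Kcnip4, a calcium-binding protein gene of the group that binds Kv4 channels, was at 10.1, 11.7 and 12.1 CPM in antisense and 6.29, 4.65 and 3.07 CPM in sense, without overlap. The means were 11.3 ± 1.10 and 4.67 ± 1.61 CPM (SD, n = 3 each), a 2.40-fold difference (log2 fold change 1.27, SE 0.239; edgeR adjusted p = 0.000882). The other genes of that group, Kcnip1, Kcnip2 and Kcnip3, had log2 fold changes of -0.51 (SE 0.251), -0.35 (SE 0.188) and -0.15 (SE 0.188) and did not pass. Kcnj13, Kcnab1, Kcnk4 and Kcnip4 passed whichever library was left out, with log2 fold changes of 3.06 to 3.45, 0.98 to 1.01, 1.06 to 1.58 and 1.04 to 1.52.

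**Figure D2:**
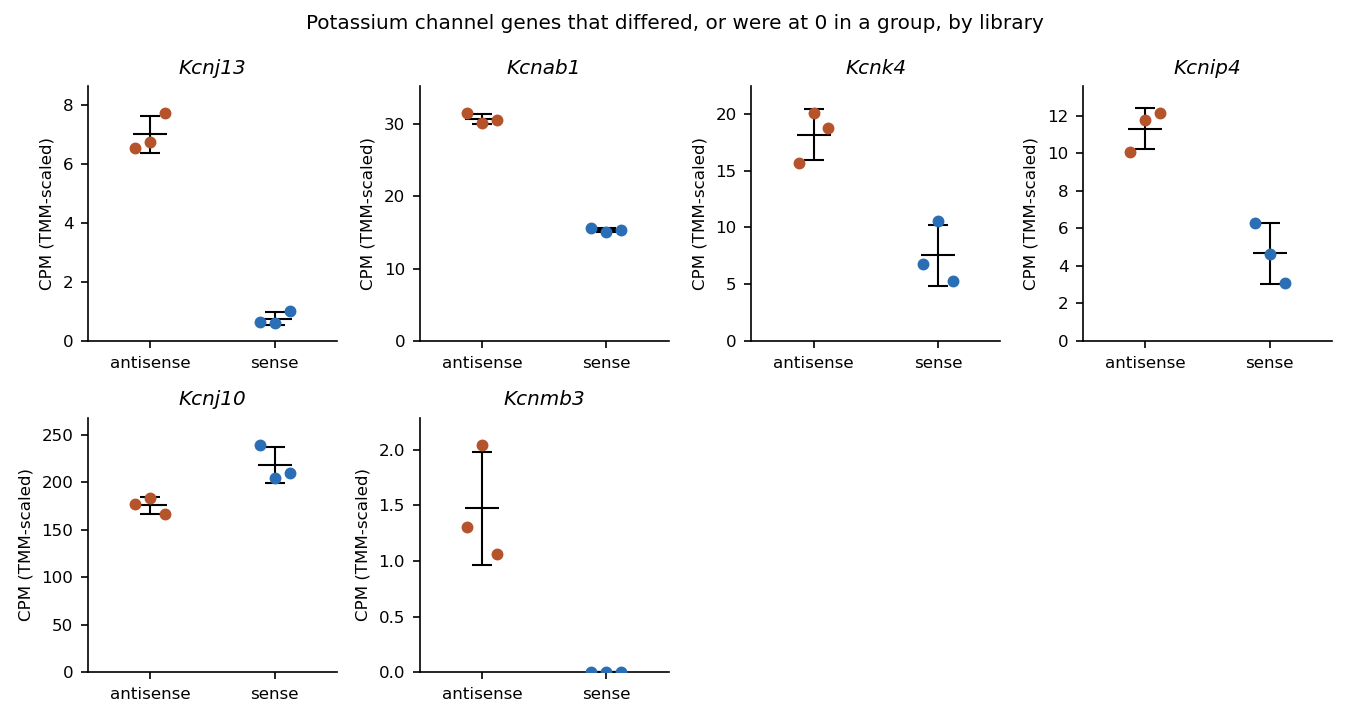
CPM on the vertical axis, from 0, of Kcnj13, Kcnab1, Kcnk4, Kcnip4 and Kcnj10, which passed, and of Kcnmb3, which was at 0 in sense; each point is 1 library, and the black lines give the mean and SD of 3 libraries. In every panel the 3 libraries of one group lie beyond the 3 of the other, and the Kcnab1 points of a group lie close together.

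Kcnmb3, a beta subunit of the BK channel, had 10, 16 and 8 counts in antisense and 0 in all sense libraries, too few for the main test. Against a floor of 3 counts over the sense group it was at least 9.21-fold higher in antisense. The gene was named because it was at 0 in one group, so no p is given. Kcnk7, a tandem-pore gene chosen after its values were seen, had 9, 6 and 15 counts in antisense and 2, 1 and 0 in sense. Scaled to library size, its ratio was 8.13, with an exact 95% interval of 2.53 to 41.6. As the gene was picked by these counts, the interval is no test of a difference. DESeq2 did not call Kcnk7 (DESeq2 adjusted p = 0.0696), and in edgeR it passed only with no count filter or without antisense replicate 2. Floors and intervals cover counting error only. The beta subunits Kcnmb1, Kcnmb2 and Kcnmb4 did not pass (log2 fold changes 0.15, 0.66 and -0.17).

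The 27 members that were not tested had at most 16 counts in any library. They are Kcna5, Kcna7 and Kcna10 of Kv1, Kcnq1 of Kv7, Kcnh6 and Kcnh8, the silent subunits Kcng4, Kcns1 and Kcnv2, the testis channel Kcnu1, the rectifiers Kcnj1, Kcnj8, Kcnj11, Kcnj12 and Kcnj14, the tandem-pore genes Kcnk5, Kcnk7, Kcnk12, Kcnk13, Kcnk15, Kcnk16 and Kcnk18, and the auxiliary genes Kcne1, Kcne2, Kcne3, Kcne4 and Kcnmb3. Several of them are known from heart, kidney, pancreas or sensory organs. Kcnj8, a vascular and pericyte channel, and Kcnk16, a channel of pancreatic islets, had no count in any of the 6 libraries, which allows a level of up to 0.0720 CPM over them together. The Kcne genes, which encode small membrane-spanning subunits, had at most 4 counts in any library.

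By class, the summed level on the TMM scale was lower in antisense for most pore-forming groups shown. It was 103 to 118 CPM in antisense against 120 to 135 CPM in sense for Kv1. For Kv4 it was 117 to 127 CPM and 130 to 137 CPM, and for Kv7 213 to 236 CPM and 243 to 259 CPM. Calcium- or sodium-activated channels summed to 267 to 277 CPM and 292 to 298 CPM, and inward rectifiers, where Kcnj10 made up most of the sum, to 239 to 261 CPM and 281 to 317 CPM. None of these class sums overlapped between groups. Auxiliary subunits summed to 102 to 113 CPM in antisense against 92.5 to 94.0 CPM in sense, with Kcnab1 alone contributing 30.1 to 31.5 CPM and 15 to 15.6 CPM. Without Kcnab1, a sum added after seeing the data, they were 81.5, 74.8 and 71.3 CPM in antisense and 78.5, 78.7 and 77.2 CPM in sense, with overlapping groups, so the higher sum rested on that gene. Sums of Kv3, of the EAG, ERG and ELK family, of silent subunits and of tandem-pore genes overlapped. These sums are a description on the TMM scale and were not tested.

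**Figure D3:**
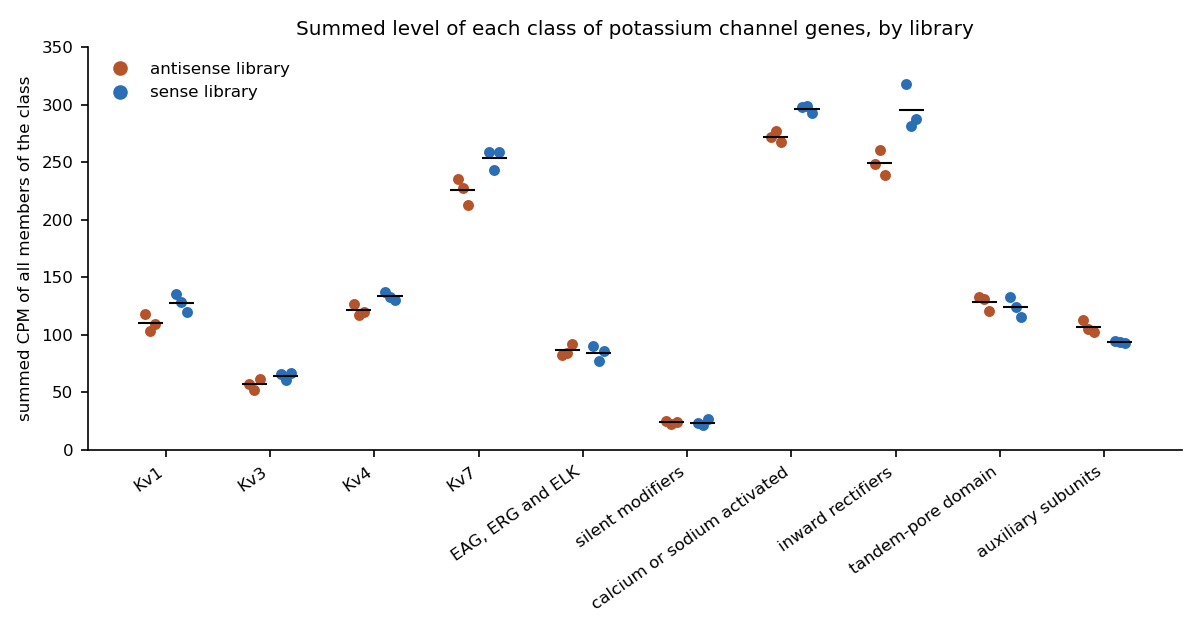
Summed CPM of all members of each class shown on the vertical axis, from 0, with 1 point per library, antisense at left and sense at right in each class, and the mean as a line. Sense libraries lie above antisense libraries for Kv1, Kv4, Kv7, calcium- or sodium-activated channels and inward rectifiers, and below them for auxiliary subunits, where this rests on Kcnab1.

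All 4 higher members overlapped another gene of the RefSeq table (GRCm38.p6), and Kcnj10 overlapped none. All 92 members had a position there and 67 a listed strand. Of the 65 tested, 30 overlapped at least 1 other gene and 4 of these were higher (13.3%), against 11% of tested protein-coding genes that overlap another gene. Of the 35 that overlapped none, none was higher in edgeR and 2 were lower, against 7.96% higher and 4.82% lower among such protein-coding genes. The median log2 fold change was -0.08 for overlapping and -0.18 for other members. Whether counting used strand is not given in the sources used here, so reads of a member and of a gene on the other strand may not be told apart.

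Kcnj13 lies whole within Gigyf2, a translation repressor gene on the opposite strand, at chr1:87384577-87394729 inside chr1:87326931-87450810. Gigyf2 was at 107 ± 6.30 CPM in antisense against 116 ± 4.44 CPM in sense (SD, n = 3 each) and did not pass (log2 fold change -0.11; edgeR adjusted p = 0.436). Kcnab1, at chr3:64949212-65378225, holds the noncoding gene A330015K06Rik on its opposite strand. That gene was itself higher in antisense, at 9.96 ± 1.05 and 1.99 ± 0.654 CPM (SD, n = 3 each; log2 fold change 2.32; edgeR adjusted p = 1.21e-05). Kcnab1 also holds A730090N16Rik on the opposite strand, at 1.79 and 0.695 CPM, which was not tested.

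Kcnip4 spans chr5:48389503-49525122 and holds 5730480H06Rik, a noncoding gene on the opposite strand at 59.3 ± 4.54 CPM in antisense against 65.1 ± 5.32 CPM in sense, which did not pass (edgeR adjusted p = 0.385). It also holds the pseudogenes Gm19932 and Gm19031, whose strand is not listed, with 44 and 22 counts in antisense and 0 in sense. They were at least 11.9-fold and at least 5.96-fold higher. Kcnk4 overlaps Gm46646, a noncoding gene on the opposite strand with no row in the table, and its nearest neighbours Catsperz and Gpr137 were at 0.519 and 20.5 CPM in antisense and 0.275 and 21.7 CPM in sense. The part of these overlaps in the higher calls was not tested.

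The other members with a protein-coding gene on the opposite strand did not pass or, for Kcnmb3 and Kcnk7, were not tested. The 3' part of Kcnmb3 overlaps Pik3ca by 967 bases, and Pik3ca was at 70.2 ± 6.17 and 74.8 ± 1.49 CPM (SD, n = 3 each; log2 fold change -0.09). Kcnk7 overlaps Ehbp1l1 by 616 bases, at 18.5 ± 3.17 and 17.3 ± 3.45 CPM. Kcnh7 overlaps Gca by 700 bases and Kcnab2 overlaps Nphp4 by 844 bases, and none of these 4 genes passed. Kcnmb1 lies within Kcnip1 on the other strand, so these 2 members share their span, and neither passed.

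**Figure D4:**
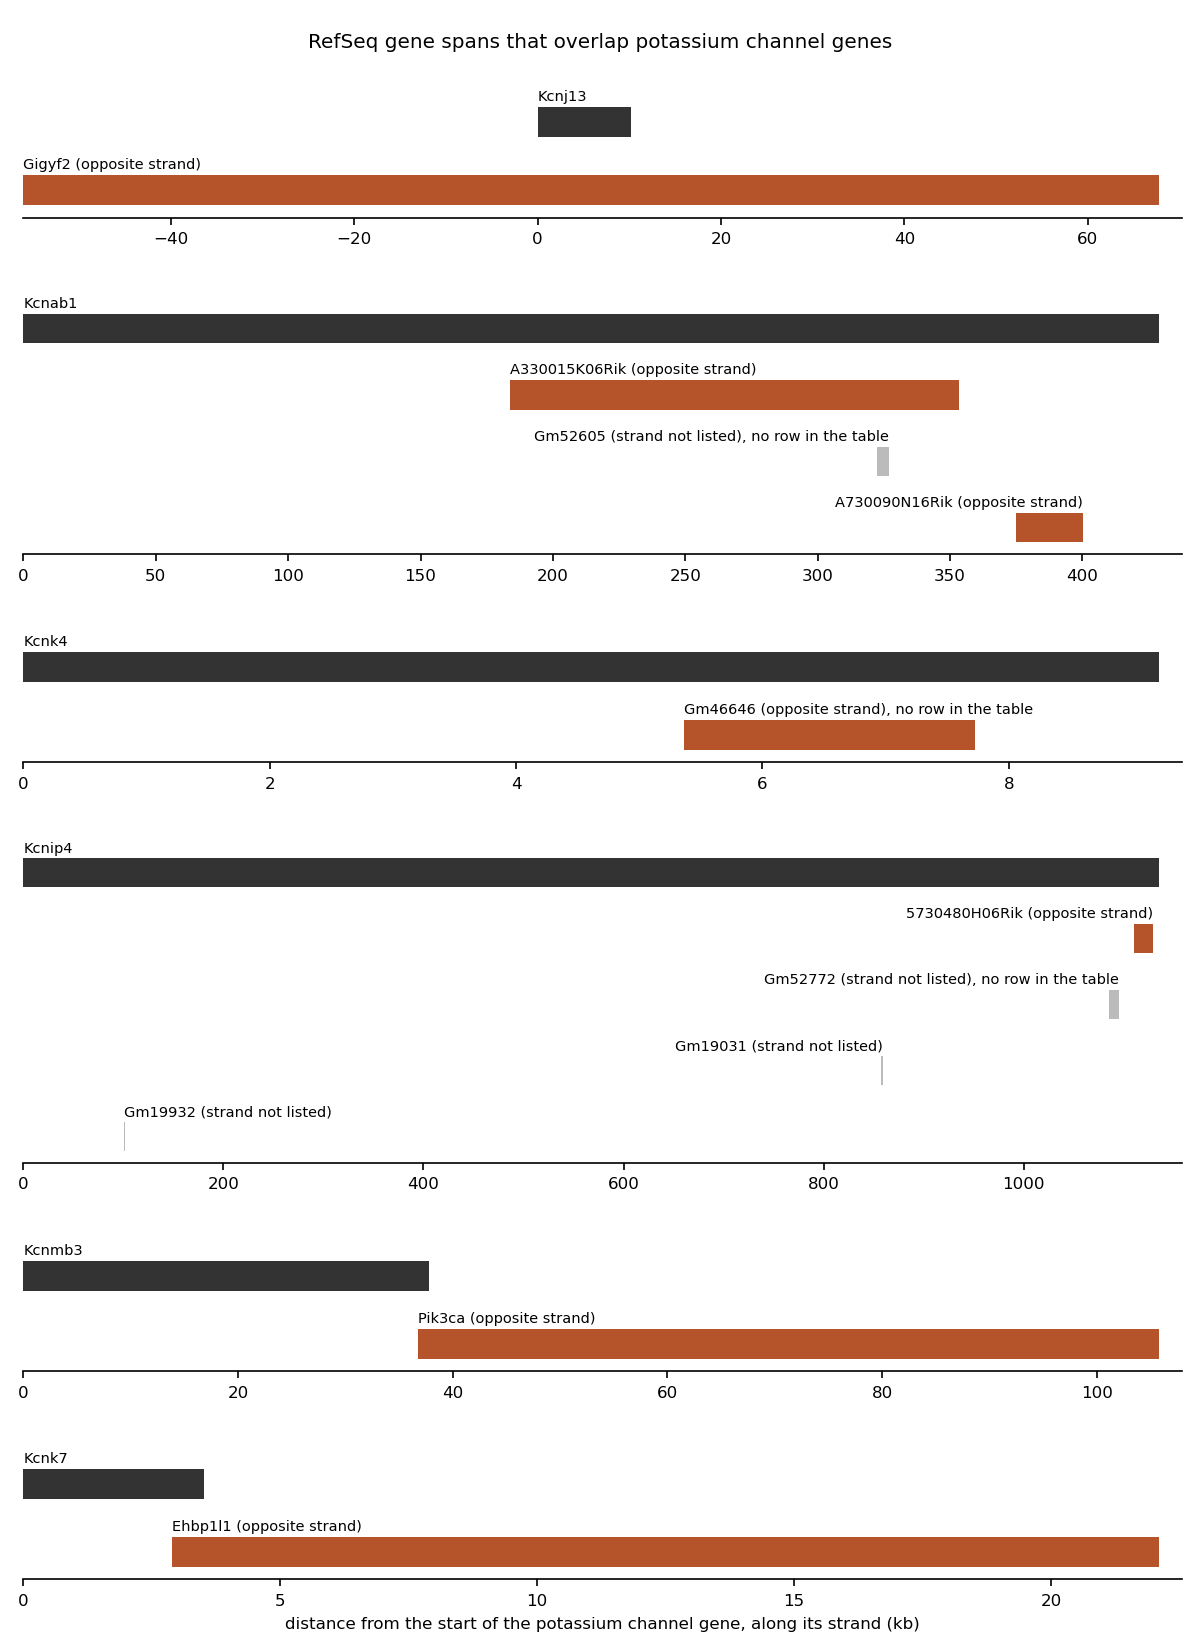
RefSeq spans of 6 potassium channel genes (dark bars) and of the genes that overlap them (brown, opposite strand; grey, strand not listed), on a horizontal axis of distance in kb from the start of the potassium channel gene along its strand. Kcnj13 lies whole inside Gigyf2, Kcnab1 and Kcnip4 hold smaller genes, and Kcnmb3 and Kcnk7 overlap Pik3ca and Ehbp1l1 at their ends; the scale differs between panels.

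Start regions are shown for 3 of the called members: Kcnj13, with the largest difference, Kcnab1, with the lowest standard error among the 4 higher members, and Kcnj10, which was lower. Each is the 250 bases before the farthest upstream start listed by RefSeq (GRCm38.p6), and capitals mark matches to the GC box GGGCGG or the TATA box TATAAA on either strand, motifs that do not overlap here. The Kcnj13 window is at chr1:87394730-87394979 (minus strand), the Kcnab1 window at chr3:64948962-64949211 (plus strand) and the Kcnj10 window at chr1:172340960-172341209 (plus strand).
Kcnj13: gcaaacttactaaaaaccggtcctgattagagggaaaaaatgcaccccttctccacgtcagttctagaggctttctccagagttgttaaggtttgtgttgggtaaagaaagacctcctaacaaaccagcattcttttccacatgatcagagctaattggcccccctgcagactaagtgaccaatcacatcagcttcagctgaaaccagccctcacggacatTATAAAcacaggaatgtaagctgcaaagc
Kcnab1: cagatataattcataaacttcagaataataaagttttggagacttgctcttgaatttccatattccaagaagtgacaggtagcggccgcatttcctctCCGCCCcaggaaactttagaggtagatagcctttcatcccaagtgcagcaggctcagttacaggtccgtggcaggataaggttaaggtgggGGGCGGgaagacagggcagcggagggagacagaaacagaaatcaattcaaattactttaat
Kcnj10: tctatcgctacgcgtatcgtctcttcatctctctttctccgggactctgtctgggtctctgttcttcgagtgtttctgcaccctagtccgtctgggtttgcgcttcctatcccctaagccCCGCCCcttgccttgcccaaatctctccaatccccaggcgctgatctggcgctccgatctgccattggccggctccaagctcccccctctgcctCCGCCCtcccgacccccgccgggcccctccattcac

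The Kcnj13 start lies inside the Gigyf2 span, and its window has 3 CpG dinucleotides, 45.2% G and C, 1 TATA box and no GC box. The Kcnab1 window has 6 CpG and 45.2% G and C with 2 GC boxes, and the Kcnj10 window has 17 CpG and 62.0% G and C with 2 GC boxes. Over all 92 listed starts of 67 members, 44.6% of windows held a GC box and 3.26% a TATA box, against 32.7% and 12.4% of all 32851 listed starts. With only the farthest upstream start of each of these members the shares were 49.3% and 2.99%. Among members with a listed start, 54.3% of the 46 tested and 38.1% of the 21 not tested held a GC box. A match is a run of letters and no measured site.

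Genes whose proteins work with these channels were counted in the same way. Of 28 partner genes outside the naming rule (Kv4 and Kv1 partners, sulfonylurea receptors, BK gamma subunits, calmodulins and GABA-B receptors), 26 were tested, of which 1 was higher, 2 were lower and 23 did not pass (median -0.07). These are 3.85% higher and 7.69% lower, against 9.37% and 4.8% of tested protein-coding genes and 18.2% and 4.35% of all genes tested. The higher gene was Lrrc26, which encodes a BK gamma subunit of secretory epithelium, with 14, 25 and 10 counts in antisense and 0 in sense, at least 13.3-fold higher. Lrrc26 passed the count filter through its antisense libraries alone, so its call is to be read with that limit. Ank3, the ankyrin that anchors Kv7 channels at the axon initial segment, was lower at 345 ± 36.1 CPM against 444 ± 51.8 CPM (SD, n = 3 each; log2 fold change -0.37, SE 0.108; edgeR adjusted p = 0.0227). Gabbr2, a GABA-B receptor subunit gene, was lower by the test (-0.41 on the log2 scale, SE 0.137; edgeR adjusted p = 0.0424), although its groups overlapped.

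Of 7 rows that begin with Kcn and fall outside the rule, 4 were tested and 1 was higher (25%, against 18.2% of all genes tested). Kcnrg, which encodes a cytoplasmic regulator of Kv assembly and not a channel, had 85, 78 and 74 counts in antisense and 17, 5 and 12 in sense (log2 fold change 2.49, SE 0.308). Kcnq1ot1, the imprinted noncoding RNA inside Kcnq1, was at 2622 ± 146 CPM in antisense against 2176 ± 252 CPM in sense (SD, n = 3 each) and did not pass (edgeR adjusted p = 0.0750), and Kcnq1 itself had 5, 16 and 6 counts against 5, 1 and 0.

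The authors' deposited table, which gives sense minus antisense, holds all 92 members, 82 of them with an adjusted p. Turned to antisense minus sense, the authors' deposited table has the same direction for all 65 members tested here. At an adjusted p under 0.05 the authors' deposited table calls 5 members higher in antisense (13.8% of its genes are) and 1 lower (2.18%), namely Kcnj13, Kcnab1, Kcnk4, Kcnip4 and Kcnmb3, and Kcnj10. It shares 5 calls with those above.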

How the data were processed

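The submitters' processing notes name Salmon, DESeq and GRCm38 and give neither versions nor settings. Per gene symbol, the authors deposited estimated counts of total RNA, which were rounded to whole numbers. The authors' deposited comparison table holds, per gene, p-values, a test score, a log2 fold change, its error and the mean signal, and served for a side-by-side reading. The small RNA tables were not used here.

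Genes were kept by filterByExpr (minimum count 10), scaled by TMM and tested with edgeR 4.0.16 (quasi-likelihood F test, antisense minus sense, no further term; R 4.3.3), adjusted by Benjamini-Hochberg at 0.05 over all genes tested. The standard error is the log2 fold change over the square root of F. The fit was tested on simulated counts, which did not include the difference in the Gas5 share between groups. Alternatives were DESeq2 1.42.0, other scalings and filters, each library left out, a replicate block, and members that overlap no other gene. Positions, strands and start sequences came from RefSeq tables of GRCm38.p6.

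The members and lists were chosen with earlier results of these data known. Named were the members past the threshold, the member with the highest mean CPM of each class, members at 0 in one group with at least 10 counts in the other, up to 4 partner genes and rows beginning with Kcn that passed; the other genes named beside them were chosen after their values were seen. Some members that entered the fit and the counts are not reported here by name.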

Additional observations from a re-analysis of the deposited data

How the results depend on the processing

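Kcnj13, Kcnab1, Kcnk4 and Kcnip4 passed as higher under every alternative fit that included them. On library totals alone, where the median of all genes was 0.69 and the members' median less that of all genes was -0.11 (-0.12 on the TMM scale), 30 members were higher and 0 lower, the members' median was 0.58, and log2 fold changes turned positive for Kcnj10 (0.41), Kcna2 (0.58), Kcnc1 (0.65), Kcnd3 (0.49), Kcnv1 (0.70), Kcnma1 (0.55) and Kcnk10 (0.72). The share of all genes called on that scaling is not given here. The number of lower members was 1 of 82 tested with DESeq2 and 1 of 41 tested at a minimum count of 50. When 1 library was left out, 67 to 69 members were tested and 0 to 3 were lower (0 without sense replicate 3, 3 without sense replicate 2). The number of higher members was then 4 to 5 and the median -0.196 to -0.0895. The added higher member was Kcnmb3 or, without antisense replicate 2, Kcnk7, both with few counts. Except for DESeq2, the share of all genes called in these fits is not given here. Among members overlapping no other gene 0 were higher, 2 were lower and the median was -0.18; this alternative leaves 35 members. Kcnk10 changed sign with Gas5 left out (0.0151) and at a minimum count of 50 (0.0308), and Kcnv1 at a minimum count of 50 (0.00204). On leaving out 1 library Kcnk10 ran from -0.11 to 0.142, positive without antisense replicate 3 or sense replicate 1, and Kcnv1 from -0.157 to 0.0341, positive without antisense replicate 2 or sense replicate 3. Apart from the construction of each alternative, the cause was not tested. With a replicate block 4 of 65 tested members were higher and 2 lower, the same genes, with a median of -0.13. The share of all genes called in that fit is not given here. Same-numbered libraries had correlations of deviations of 0.05, -0.06 and -0.01, and the other pairs ran from -0.13 to 0.14. With 3 libraries in a group, these values show no shared deviation but cannot tell if same-numbered libraries were made together. Depth limits members with few counts, of which 27 were not tested.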
